A study of Mus musculus with 5 samples.

Results

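The genes described here are 10 members of the circadian clock, Per1, Per2, Per3, Cry1, Cry2, Clock, Arntl, Nr1d1, Nr1d2 and Dbp. They were taken by symbol from the gene list deposited with the series. All 10 were found among 31053 genes, each as 1 row. Their counts were followed in neurons, astrocytes and oligodendrocytes of samples taken for the mouse paraventricular hypothalamus, in 5 single-nucleus RNA libraries made with 10x Genomics chemistry. The question put to the data was where the clock genes of each cell class stood in each library.

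The clock of a mammalian cell is a transcriptional loop. CLOCK and BMAL1, the product of Arntl, bind E-box sequences together and switch on the Per and Cry genes, whose proteins return to the nucleus and block that pair. The same pair drives Nr1d1 and Nr1d2, which encode the REV-ERB repressors of Arntl, and Dbp, which encodes an activator that binds D-box sequences in Per genes. Transcripts of the Per, REV-ERB and Dbp genes and of Arntl therefore peak at opposite phases of the day in most tissues, with Clock transcripts varying less. Neurons and glia both run this loop, the suprachiasmatic nucleus is the pacemaker that sets it to the light cycle, and glucocorticoids, neuronal activity and temperature can each move Per transcripts.

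All animals were male mice on a C57BL6 background, kept in a cycle of 12 h light and 12 h dark, and each library pooled nuclei from 2 to 4 of them. In the first experiment the mice carried OT-Cre, which is driven by the oxytocin promoter, and the Ai9 reporter, Rosa26tm9(CAG-tdTomato)Hze, and were taken at 5 weeks of age. Their mothers had received saline (10 mL/kg, the saline library) or valproic acid (VPA, 500 mg/kg, the VPA library) on gestation day 12.5. In the second experiment the mice carried OT-Cre and stop-hM3, Rosa26dreaddm3, a Cre-dependent receptor that clozapine N-oxide (CNO) activates, and all had been exposed to VPA before birth. They received saline (the hM3 control library) or CNO (CNO replicates 1 and 2) on postnatal day 2, were also given an AAV in the paraventricular and supraoptic regions whose cargo the labels do not give, and were taken at 5 to 7 weeks. Nuclei were sorted by DAPI signal with a gate that favoured large ones, which can set the shares of the classes. Nuclei rich in Oxt, the gene whose promoter drives Cre, numbered 9 to 41 per library. The hour of collection is not given in the sources used here. With 1 library in most arms, a difference in that hour cannot be told apart from a difference between groups.

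The 5 libraries held 52506958 to 76243280 unique molecules (UMIs), and 4135 to 9829 nuclei per library passed the filters. Each library shared 28 to 61 barcodes with the others. Classes were set from marker UMIs that do not include the clock genes. The neuron-like class held 2650 to 7567 nuclei per library, the astrocyte-like class 348 to 1414 and the oligodendrocyte-like class 319 to 844. By UMIs of Sim1 and Otp, 6.98% (CNO replicate 1) to 19.2% (saline) of neuron-like nuclei were paraventricular. Levels in neuron-like nuclei are therefore mostly those of nuclei that did not pass as paraventricular. Median marker UMIs in the saline library were 85.4, 158 and 149 per 10000 UMIs in the 3 classes for their own lists. RNA of neuron markers was present in the glial classes, at 4.50% to 9.92% of its neuronal level in oligodendrocyte-like nuclei and 5.58% to 9.36% in astrocyte-like nuclei, lowest in the saline library and highest in CNO replicate 2. Levels below are CPM, the UMIs of a gene scaled to the same total of UMIs summed over a class. They cannot tell fewer expressing nuclei from less RNA per nucleus. Neuron-like nuclei were deeper, with a median in the saline library of 13267.5 UMIs, against 3521.5 in astrocyte-like and 3648 in oligodendrocyte-like nuclei. A higher CPM in glia is a larger share of UMIs and need not mean more UMIs per nucleus. In that library Nr1d2 had 2919 UMIs in 3830 neuron-like and 274 in 674 astrocyte-like nuclei, fewer per astrocyte-like nucleus. Nr1d1 had 156 and 76, more per astrocyte-like nucleus.

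As a share of UMIs, astrocyte-like nuclei had a higher level than neuron-like nuclei for 8 of the 10 genes. The largest difference was in Nr1d1, which stood at 30.1, 31.5, 49.1, 52.1 and 55.9 CPM in astrocyte-like nuclei (libraries in the order prenatal saline, prenatal VPA, hM3 control, then both CNO replicates), and at 2.75, 3.44, 4.37, 5.43 and 5.51 CPM in neuron-like nuclei. No library overlapped between these classes, and the log2 difference was 3.28 ± 0.10 (standard error, adjusted p = 2.46e-12). This and the other class comparisons used edgeR's quasi-likelihood test on 15 sums, with library as a block and Benjamini-Hochberg adjustment over 13888 genes. Classes of a library share animals and preparation, so n = 5 libraries. Of all genes tested, 35.3% were higher and 37.8% lower in astrocyte-like than in neuron-like nuclei.

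Dbp, the D-box activator, was higher in astrocyte-like nuclei by 2.34 ± 0.13 on the log2 scale (adjusted p = 6.62e-10), at 19.8 to 58.3 CPM against 4.26 to 10.3 CPM. The 3 Period genes, which encode the inhibitors that close the loop, were all higher there, Per3 by 1.93 ± 0.09 (adjusted p = 9.79e-11), Per2 by 1.68 ± 0.09 (adjusted p = 2.94e-10) and Per1 by 1.33 ± 0.12 (adjusted p = 1.93e-07). The Cryptochrome partners of the Period proteins differed less evenly, with Cry2 1.36 ± 0.09 higher (adjusted p = 4.39e-09) and Cry1 0.73 ± 0.11 higher (adjusted p = 3.74e-05). Nr1d2, the other REV-ERB gene, was 1.08 ± 0.09 higher (adjusted p = 7.69e-08). The activator pair went another way. Clock was lower in astrocyte-like nuclei, at 84.4 to 115 CPM against 158 to 169 CPM, a log2 difference of -0.86 ± 0.09 (adjusted p = 4.69e-07). Arntl did not pass the test (0.06 ± 0.13, adjusted p = 0.704), and its astrocytic levels of 42.3 to 94.5 CPM lay on both sides of the neuronal 54.4 to 66.0 CPM. The median difference of the 10 genes was 1.34, beside -0.03 over all genes tested.

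**Figure D1:**
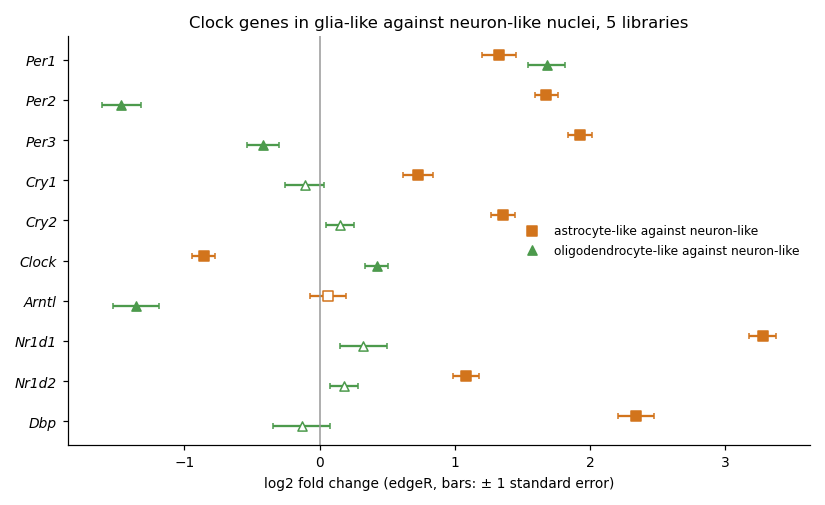
Log2 fold change of each clock gene in astrocyte-like (squares) and oligodendrocyte-like (triangles) against neuron-like nuclei over 5 libraries, with 1 standard error from edgeR as bars; filled symbols have an adjusted p under 0.05. In astrocyte-like nuclei 8 genes lie to the right and Clock to the left, while in oligodendrocyte-like nuclei Per1 and Clock lie to the right and Per2, Per3 and Arntl to the left.

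Oligodendrocyte-like nuclei had a different makeup, with a high share of Per1 and low shares of the other Period genes among their UMIs. Per1 was at 24.7, 25.9, 35.6, 51.2 and 35.3 CPM in the 5 libraries in the order above, against 7.06, 10.0, 11.2, 17.0 and 11.6 CPM in neuron-like nuclei, a log2 difference of 1.68 ± 0.13 (edgeR, adjusted p = 3.61e-08). Per2 was at 3.09 to 10.1 CPM against 14.7 to 25.2 CPM in neuron-like nuclei and 47.9 to 85.6 CPM in astrocyte-like nuclei, so that no library of any class overlapped another class. Its log2 difference was -1.47 ± 0.14 from neuron-like nuclei (adjusted p = 3.76e-07) and -3.15 ± 0.14 from astrocyte-like nuclei (adjusted p = 1.02e-10). Per1 and Per2 therefore differed in opposite directions between the same pair of classes.

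Among the other genes, Clock was higher in oligodendrocyte-like than in neuron-like nuclei (0.42 ± 0.09 log2, adjusted p = 0.000473), with 187 to 233 CPM. Arntl was lower, at 15.6 to 29.4 CPM (-1.36 ± 0.17, adjusted p = 4.06e-06), so the partners of the activator pair also went opposite ways. Per3 was lower by a smaller margin (-0.42 ± 0.12, adjusted p = 0.00571), and the call was lost without CNO replicate 1 (-0.34). Cry1, Cry2, Nr1d1, Nr1d2 and Dbp did not pass. That makes 2 genes higher and 3 lower, where 32.6% and 38.9% of all genes were. Neuron markers were counted in these nuclei at the shares given above, and the part of such RNA in the genes that did not pass was not tested. Against astrocyte-like nuclei, 8 genes were lower in oligodendrocyte-like nuclei (background 30.9%) and Clock was higher (1.28 ± 0.09, adjusted p = 1.42e-08, background 25%). Per1 fell just short (0.35 ± 0.14, adjusted p = 0.0502).

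The rest of the clock machinery was followed through 22 further genes, of which 21 could be tested. In astrocyte-like against neuron-like nuclei 13 were higher and 7 lower (background 35.3% and 37.8%), with a median of 0.61. Rorb and Rora, which encode activators of Arntl that compete with the REV-ERB proteins, were 2.28 and 1.84 higher, and Bhlhe40, an E-box repressor, 2.88 higher. The largest difference of the list was on the lower side, -4.44 ± 0.47 for Nfil3 (edgeR, adjusted p = 6.90e-07), which encodes a D-box repressor. Arntl2, the relative of Arntl, gave -1.87, Wee1, a cell cycle kinase gene driven by the loop, -1.40, and Fbxl21, a ligase subunit that acts on the CRY proteins, -1.31. Npas2, the relative of Clock that can pair with BMAL1, was 1.86 ± 0.14 higher (edgeR, adjusted p = 2.36e-08), opposite to Clock. In oligodendrocyte-like against neuron-like nuclei 4 were higher and 11 lower (background 32.6% and 38.9%). Npas2 gave -5.09 ± 0.29 there (edgeR, adjusted p = 6.92e-10), Rora -2.95 and Rorb -3.66.

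**Figure D2:**
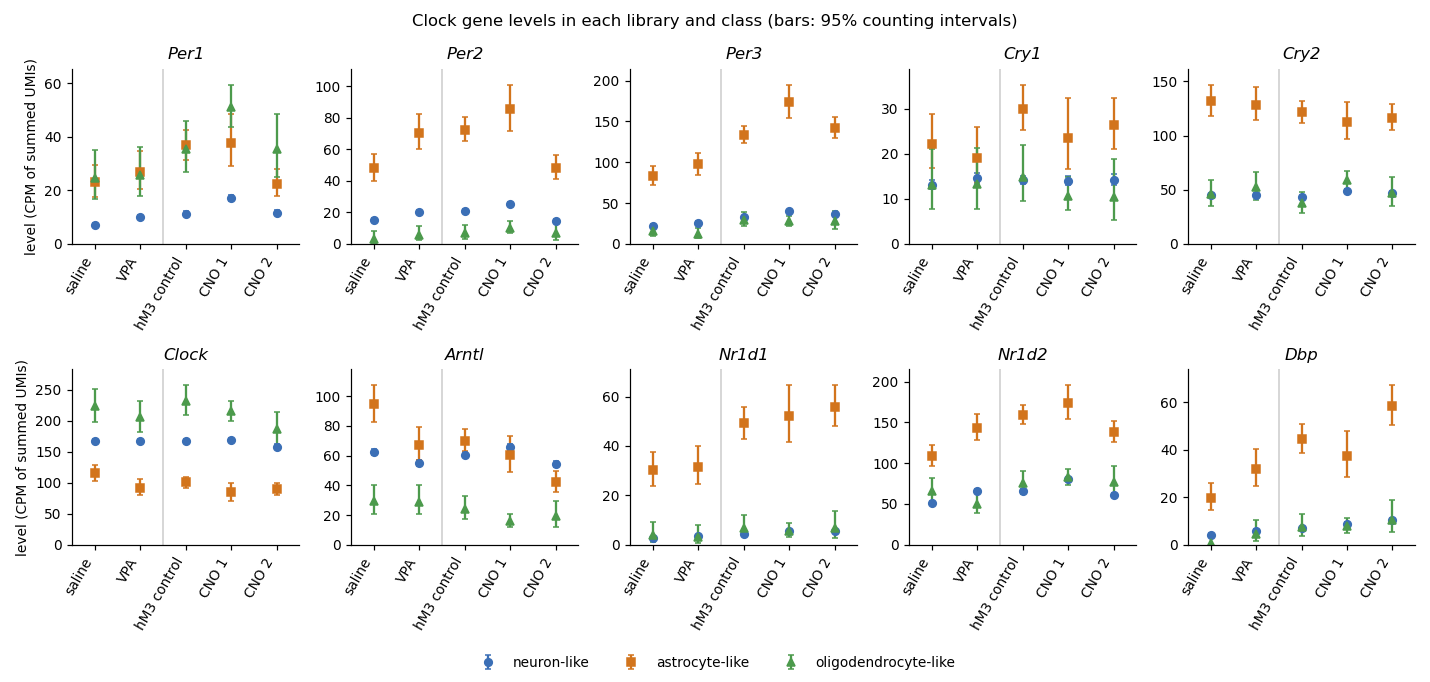
Level of each clock gene (CPM of summed UMIs) in the 5 libraries for neuron-like (circles), astrocyte-like (squares) and oligodendrocyte-like nuclei (triangles), with 95% counting intervals; the grey line parts the first from the second experiment. Cry1, Cry2 and Clock are nearly level in neuron-like nuclei, whereas the Period genes, Nr1d1, Nr1d2 and Dbp have their lowest neuronal level in the saline library, except Per2 in CNO replicate 2.

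Promoter windows of 300 bases, 250 before and 50 after each RefSeq start on GRCm38.p6, were searched on both strands for the short motifs through which the loop acts. They covered 13 windows of 9 genes. The 4 stretches below are shown because they hold the sites by which members are thought to regulate each other, with the motif in capitals. Per1 and Cry1 hold the E-box letters CACGTG, found in 7.15% of 32851 windows. The windows of Per3, Cry2, Clock, Arntl, Nr1d1, Nr1d2 and Dbp do not hold these letters, and Per2 has no window. Per3 holds the D-box letters TTATGTAA 2 times, and that form or TTACGTAA is in 1.06% of windows. Arntl holds the REV-ERB and ROR letters TAGGTCA just after its start, found in 2.61% of windows.
Per1 (chr11:69098743-69098828, plus strand): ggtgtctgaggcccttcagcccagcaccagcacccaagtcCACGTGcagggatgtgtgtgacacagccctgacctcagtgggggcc
Cry1 (chr10:85185069-85185154, minus strand): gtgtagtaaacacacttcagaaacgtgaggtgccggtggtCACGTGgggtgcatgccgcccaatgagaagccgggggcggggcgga
Per3 (chr4:151044776-151044910, minus strand): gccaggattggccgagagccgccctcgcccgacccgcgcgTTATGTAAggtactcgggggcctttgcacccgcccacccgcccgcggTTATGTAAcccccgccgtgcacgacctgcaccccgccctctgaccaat
Arntl (chr7:113207530-113207558, plus strand): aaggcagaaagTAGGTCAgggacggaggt

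The Per1 site begins 166 bases before its start, the Cry1 site 60 bases before, the Per3 sites 205 and 158 bases before, and the Arntl site at base 31 after it. The Per1 stretch is inside an intron of the longer Per1 transcript of the GENCODE vM21 annotation, since Per1 has a further start upstream. A second Per1 window holds the half-site TGACGT of cAMP-responsive elements, 132 bases before its start, which 7.51% of windows hold. These matches describe letters and not binding.

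Across the 5 libraries the Period genes, Nr1d1, Nr1d2 and Dbp spanned wider ratios in neuron-like nuclei than Clock, Arntl, Cry1 and Cry2. Such ranges run across both experiments, which differ in genotype, AAV and age. Neuronal Per1, Per3, Nr1d1 and Dbp were lower in both libraries of the first experiment than in any of the second, whereas Per2 and Nr1d2 were not. The part of the experiment was not tested. Clock was at 168, 168, 167, 169 and 158 CPM in the library order used above, and Cry1 at 13.1, 14.6, 14.2, 14.0 and 14.2 CPM. Cry2 ranged from 43.0 to 49.0 CPM and Arntl from 54.4 to 66.0 CPM. Dbp went from 4.26 CPM in the saline library to 10.3 CPM in CNO replicate 2, a ratio of 2.41. Per1 also spanned a ratio of 2.41, with its highest level in CNO replicate 1. Per3 stood at 21.3, 26.1, 32.5, 40.4 and 36.1 CPM. Of the 8 genes that passed the filter on low values, 4 had a highest level over 1.5 times the lowest, as did 27.3% of all genes tested. In astrocyte-like nuclei this was so for 8 of 10 genes (background 54.2%), with Arntl running from 94.5 CPM in the saline library to 42.3 CPM in CNO replicate 2, and in oligodendrocyte-like nuclei for 5 of 7 (background 64.9%).

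Over all nuclei of a class, Per2, Nr1d2 and Dbp had higher levels in the VPA than in the saline library in both neuron-like and astrocyte-like nuclei, whereas astrocytic Cry1 (-0.21) and Cry2 (-0.04) did not. Per2 stood at 20.5 against 15.2 CPM in neuron-like nuclei and at 70.7 against 47.9 CPM in astrocyte-like nuclei, log2 ratios of 0.43 (95% counting interval 0.30 to 0.56) and 0.56 (0.21 to 0.92). Nr1d2 gave 0.35 (0.28 to 0.42) and 0.41 (0.17 to 0.64). Dbp gave 0.45 (0.20 to 0.70) and 0.69 (0.15 to 1.24). Per1 gave 0.50 (0.31 to 0.69) in neuron-like nuclei and 0.23 (-0.32 to 0.78) in astrocyte-like nuclei. Neuronal Dbp and Per1 were under the filter on low values. Arntl was lower in both classes, at 54.8 against 62.5 CPM in neuron-like nuclei and 67.5 against 94.5 CPM in astrocyte-like nuclei, log2 ratios of -0.19 (-0.26 to -0.12) and -0.49 (-0.79 to -0.18). These intervals cover counting error only. There is no replicate check in this comparison and no test was made. Neuron-marker RNA in astrocyte-like nuclei was also higher in the VPA library, with a median of 7.44 marker UMIs per 10000 against 3.91, and its part in the astrocytic ratios was not tested.

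The neuronal differences were not the same in every set of neurons, when neuron-like nuclei were split by marker UMIs into sets that overlap in part. In GABAergic nuclei Per2 was at 25.6 against 18.4 CPM (0.48, 0.28 to 0.68), while Arntl was level at 60.4 against 59.7 CPM (0.02, -0.10 to 0.13). In glutamatergic nuclei it was the other way round, with Per2 level at 14.4 against 14.3 CPM (0.02, -0.29 to 0.32) and Arntl lower at 48.0 against 69.2 CPM (-0.53, -0.68 to -0.37). Paraventricular nuclei, rich in Sim1 and Otp, gave 0.20 for Per2, with an interval that spans 0 (-0.19 to 0.58), and lower Arntl (-0.41, -0.61 to -0.22). Thalamus type nuclei, rich in Tcf7l2, Prkcd and Lef1, gave 0.31 for Per2 (-0.08 to 0.70) and -0.26 for Arntl (-0.45 to -0.07). Nr1d2 was clear of 0 on the higher side in all 4 of these sets, at 0.22 to 0.46, and Dbp in none of them. The difference between sets was not tested.

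The makeup of the neuron-like nuclei also moved between these libraries. Thalamus type nuclei were 636 of 3830 in the saline and 564 of 7567 in the VPA library, or 16.6% and 7.45%. Paraventricular nuclei were 736 and 1099, or 19.2% and 14.5%. Nuclei rich in suprachiasmatic markers by their summed UMIs, in which Per2 is high, numbered 4 and 133. In GABAergic nuclei outside that marker-rich set Per2 gave 0.41 (0.21 to 0.61). With fixed weights over GABAergic, glutamatergic and other nuclei, which do not fix the share of the thalamus type, paraventricular or marker-rich set, the neuronal differences on log2(CPM + 1) were 0.37 for Per2 and -0.18 for Arntl, beside 0.40 and -0.19 without.

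By the size rule of 1.5-fold on log2(CPM + 1), 1 value was past the limit, Dbp in astrocyte-like nuclei (0.66), of 10 genes that passed the filter there, where 7.08% of genes were higher and 3.22% lower by that much. Dbp fell short of the limit with a minimum of 2000 UMIs per nucleus (0.43) or a pseudocount of 10 CPM (0.49). The VPA library was shallower, with a median of 5451 UMIs per nucleus against 11068, and the part of depth was not tested. In neuron-like nuclei 0 of 7 were higher (background 1.17%) and 0 lower (background 0.856%). In oligodendrocyte-like nuclei 0 of 7 were higher (background 11.9%) and 0 lower (background 5.1%). Counting intervals were clear of 0 on the higher side for Per2, Per3, Cry1 and Nr1d2 of the 7 in neuron-like nuclei, where 42.5% of genes were, and on the lower side for Arntl, where 21% were. In astrocyte-like nuclei they were for Per2, Nr1d2 and Dbp of 10 on the higher side (background 11.7%) and for Clock and Arntl on the lower side (background 9.34%). In oligodendrocyte-like nuclei none of the 7 was clear of 0 (background 9.5% higher and 7.71% lower), Nr1d2 gave -0.39 (-0.88 to 0.10), and Dbp rested on 1 UMI in the saline library and 6 in the VPA library. Per1, Nr1d1 and Dbp in neuron-like nuclei were under the filter of a mean of 10 CPM. The median over members that passed was 0.14 in neuron-like and in astrocyte-like nuclei, beside 0.06 and 0.04 over all genes.

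**Figure D3:**
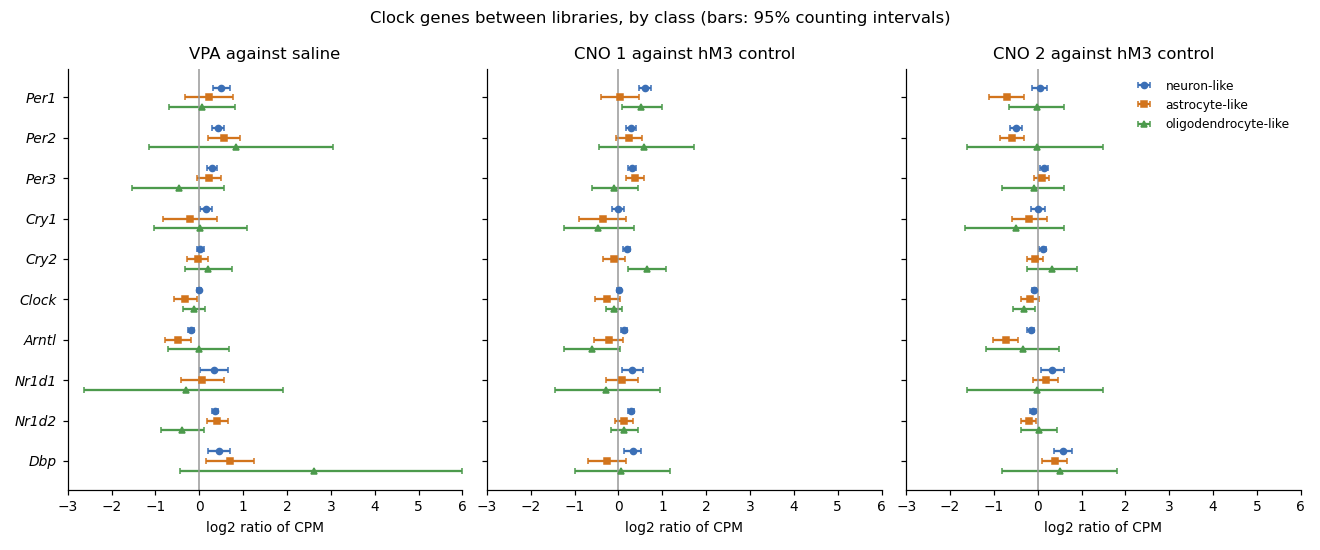
Log2 ratio of CPM for each clock gene between libraries, with 95% counting intervals, in neuron-like (circles), astrocyte-like (squares) and oligodendrocyte-like nuclei (triangles); the Dbp interval in oligodendrocyte-like nuclei runs past the right edge of the first panel. Per2 lies to the right of 0 for CNO replicate 1 and to the left for CNO replicate 2 in neuron-like and astrocyte-like nuclei.

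Several clock genes lay on opposite sides of the hM3 control library in the CNO replicates. Per2 in neuron-like nuclei was at 20.7 CPM in the control, 25.2 CPM in CNO replicate 1 and 14.7 CPM in CNO replicate 2, so the control lay between the replicates. In astrocyte-like nuclei the same order held, with 72.5, 85.6 and 48.2 CPM. Per1 in astrocyte-like nuclei was at 36.8, 37.8 and 22.5 CPM. No gene was past 1.5-fold the same way in both CNO libraries in any class, where 1.21% of genes were higher in neuron-like, 3.56% in astrocyte-like and 6.06% in oligodendrocyte-like nuclei, and 0.0325%, 0.357% and 1.96% lower. In neuron-like nuclei 6 of 8 genes had counting intervals clear of 0 on the higher side in CNO replicate 1 (background 47%) and 0 on the lower side (background 21.1%), whereas in CNO replicate 2 there were 2 higher (background 34.8%) and 4 lower (background 39.3%). Per3 and Cry2 were the 2 that were higher in both. Nr1d1 (0.31 and 0.33) and Dbp (0.32 and 0.58), which were under the filter, were also higher in both. In GABAergic nuclei alone Cry2 was level, at 42.7 CPM in the control and 44.2 and 43.3 CPM in the CNO replicates, and so was Nr1d1 at 4.46, 4.82 and 4.45 CPM. In glutamatergic nuclei both were higher in both replicates, Cry2 by 0.47 and 0.46 and Nr1d1 by 0.86 and 1.11, with intervals clear of 0. In thalamus type nuclei Cry2 (0.25 and 0.06) and Nr1d1 (0.64 and 0.49) were clear of 0 in replicate 1 alone. In paraventricular nuclei Cry2 (0.26 and 0.28) and Nr1d1 (-0.20 and 0.84) had intervals that spanned 0 in both. GABAergic Per3 (0.28 and 0.13) and Dbp (0.06 and 0.29) had intervals that spanned 0 except Per3 in replicate 1. In glutamatergic nuclei Per3 (0.38 and 0.24) and Dbp (0.88 and 1.01) were higher in both replicates, with intervals clear of 0. Thalamus type Dbp (0.73 and 0.89) was clear of 0 in both, and Per3 (0.18 and 0.16) in neither. Paraventricular Per3 (0.23 and 0.63) and Dbp (0.52 and 1.40) were clear of 0 in replicate 2 alone. Thalamus type nuclei, the set with the highest Cry2 of the 4 in each of these libraries, were 281 of 3136 neuron-like nuclei in the control, 418 of 2650 in replicate 1 and 656 of 2757 in replicate 2. With the fixed weights described above, which leave this share free, the mean CNO differences were 0.15 for Cry2 and 0.27 for Nr1d1, the same as without them. The part of the thalamus type share was not tested. In astrocyte-like nuclei CNO replicate 1 had Per3 alone on the higher side (0.38, 0.17 to 0.59, background 12.9%) and 0 genes on the lower side (background 8.41%). CNO replicate 2 had Dbp on the higher side (0.39, 0.10 to 0.68, background 25.1%) and Per1, Per2, Arntl and Nr1d2 on the lower side (background 18.3%). Arntl, the target of the REV-ERB repressors, gave the lowest of these ratios there (-0.73, -1.02 to -0.44). In oligodendrocyte-like nuclei Per1 and Cry2 were higher in CNO replicate 1 (background 16.4%, and 0 lower with 8.66%), and Clock was lower in CNO replicate 2 (background 10.7%, and 0 higher with 19.2%). With 1 library against 2, the smallest exact permutation p is 0.333, so no test was made. Without CNO replicate 2, Cry2 in oligodendrocyte-like nuclei would be higher past the limit (0.63). Without CNO replicate 1, Per1 (-0.69) and Arntl (-0.72) in astrocyte-like nuclei would be lower past it.

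The CNO replicates differed from each other. CNO replicate 2 was also the shallowest library, with a median of 3722.5 UMIs per nucleus against 11913 in CNO replicate 1 and 11119 in the control, and 8.14% of its nuclei passed for more than 1 class against 4.01% and 2.71%. The part of these differences in the levels was not tested. CNO replicate 2 was past 1.5-fold below CNO replicate 1 for Per2 in neuron-like nuclei (-0.74, background 3.1%, with 0 genes higher beside 6.35%) and for Per1 (-0.73) and Per2 (-0.81) in astrocyte-like nuclei (background 5.91%). Dbp went the other way in astrocyte-like nuclei, at 37.2 CPM in replicate 1 and 58.3 CPM in replicate 2 (0.63, background 12.3%). In oligodendrocyte-like nuclei 0 of 7 genes were past the limit between these replicates (background 17.9% higher and 7.04% lower). Per1 and Per2 are also induced directly by glucocorticoids and by neuronal activity. Summed glucocorticoid-responsive genes (9 listed, among them Fkbp5 and Tsc22d3) were highest in CNO replicate 1 in all 3 classes, at 283, 1220 and 1751 CPM in neuron-like, astrocyte-like and oligodendrocyte-like nuclei, and lowest in the saline library at 198, 611 and 833 CPM. Immediate-early genes (14 listed) were highest in CNO replicate 2, at 61.8, 93.2 and 81.1 CPM, and lowest in the saline library, at 32.7, 26.1 and 26.3 CPM. In neuron-like nuclei the interval of CNO replicate 2 (59.4 to 64.2) overlapped that of CNO replicate 1 (60.6, 58.6 to 62.7). The 1 listed gene that passed the filter there was lower in replicate 2 than in replicate 1 (-0.53). Of the 2 that passed in astrocyte-like and the 1 in oligodendrocyte-like nuclei, Jun was past 1.5-fold higher in replicate 2. Temperature-responsive genes (8 listed) ranged from 157 CPM in the saline library to 228 CPM in CNO replicate 1 in neuron-like nuclei, and from 232 CPM in the saline library to 389 CPM in CNO replicate 2 in astrocyte-like nuclei. The extremes of these lists also run across both experiments. The part of these lists in the levels of the clock genes was not tested.

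As a measure that does not depend on the scaling of a library, the UMIs of Per1, Per2, Per3, Nr1d1, Nr1d2 and Dbp were divided by those of Clock and Arntl. The log2 ratio in neuron-like nuclei was -1.17 in the saline, -0.76 in the VPA, -0.69 in the hM3 control, -0.41 in the CNO replicate 1 and -0.60 in the CNO replicate 2 library. In astrocyte-like nuclei it was 0.58, 1.33, 1.54, 1.95 and 1.82 in the same order. The library order was the same in these classes, which come from the same animals. Over Arntl alone it was not, since CNO replicate 2 (3.46) was above CNO replicate 1 (3.22) in astrocyte-like nuclei and below it in neuron-like nuclei (1.36 against 1.43). CNO replicate 2 then exceeded the control by 0.64 in astrocyte-like nuclei. The VPA library exceeded the saline library by 0.41 in neuron-like and 0.76 in astrocyte-like nuclei but gave -0.07 in oligodendrocyte-like nuclei, whose counting intervals overlapped and whose sign depended on the weighting of nuclei (0.10 with equal weight). Both CNO libraries exceeded the hM3 control, by 0.28 and 0.08 in neuron-like, 0.42 and 0.28 in astrocyte-like and 0.35 and 0.34 in oligodendrocyte-like nuclei, where the intervals of the control (-0.90 to -0.44) and of both CNO libraries overlapped. Overlap of separate intervals does not decide whether a difference is clear of 0, and no interval is given for these differences. The neuronal 0.08 rests on intervals of -0.72 to -0.65 for the control and -0.65 to -0.56 for CNO replicate 2. Single genes over Arntl were uneven in astrocyte-like nuclei. Against the control, Dbp gave -0.03 and 1.12 and Per1 0.26 and 0.02 in CNO replicates 1 and 2, while Per3 gave 0.60 and 0.82 and Nr1d2 0.35 and 0.53.

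**Figure D4:**
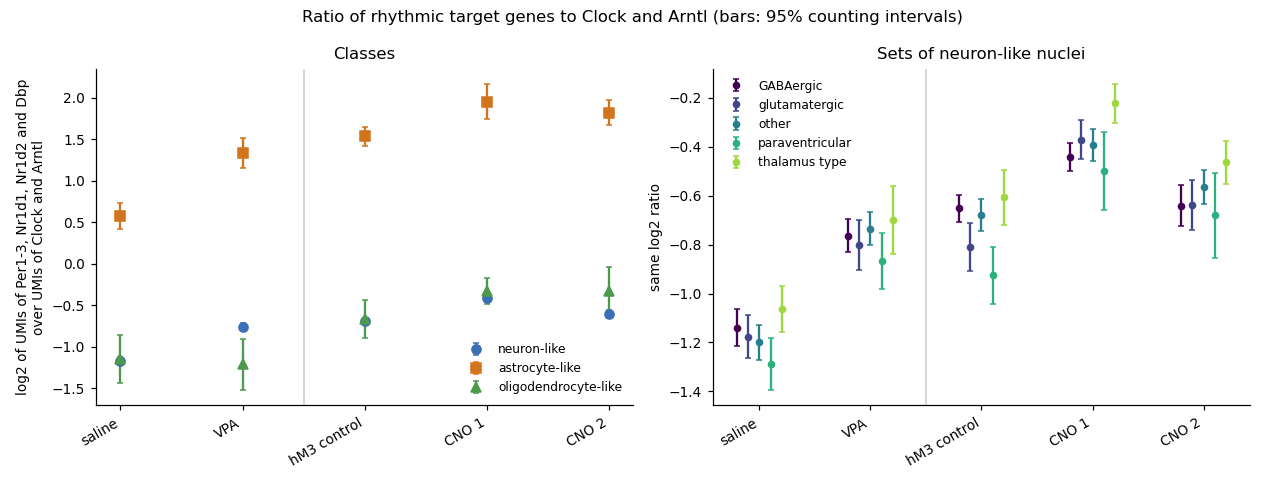
Log2 ratio of the UMIs of Per1, Per2, Per3, Nr1d1, Nr1d2 and Dbp to those of Clock and Arntl, with 95% counting intervals, by library for the 3 classes (left) and for 5 sets of neuron-like nuclei (right), which overlap in part. The saline library is the lowest in neuron-like and astrocyte-like nuclei and in each neuron set, and CNO replicate 1 the highest.

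In the sets of neuron-like nuclei the ratio went from -1.14 in the saline to -0.76 in the VPA library in GABAergic, from -1.18 to -0.80 in glutamatergic, from -1.29 to -0.87 in paraventricular and from -1.06 to -0.70 in thalamus type nuclei. As given above, Arntl was level in GABAergic nuclei, and Per2 in glutamatergic nuclei gave a value near 0 with a wide interval. The ratio may therefore stand for different changes in each set, and the difference between sets was not tested. CNO replicate 1 was the highest library in each of these sets, at -0.44, -0.37, -0.50 and -0.22. Over Arntl alone the VPA library (1.33) was above CNO replicate 1 (1.22) in glutamatergic nuclei, while CNO replicate 1 was still the highest in the other 3 of these sets. Oxt-rich nuclei, the cells that express the Cre driver, numbered 39, 41, 23, 9 and 33. Their ratio was -1.85 in the saline library (-2.36 to -1.37) and -0.63 in the VPA library (-1.23 to -0.05), on 46 and 42 UMIs of the 6 genes. In the hM3 control it was -0.70, and CNO replicates 1 and 2 at -0.56 and -0.78 lay within its interval of -1.20 to -0.22.

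Several clock genes, Per2 and Arntl among them, were high in 1 small set of neurons. Nuclei rich in 7 markers of the suprachiasmatic nucleus (Vip, Nms, Prok2, Six6, Lhx1, Rgs16 and Vipr2) numbered 133 in the VPA, 31 in the hM3 control and 28 in the CNO replicate 1 library, and 4 and 12 in the saline and CNO replicate 2 libraries, which were too few to compare. Prok2 and Rgs16 are themselves rhythmic in that nucleus, so the choice of these nuclei is not wholly apart from the clock. Per2 stood there at 121, 91.6 and 148 CPM in the VPA, hM3 control and CNO replicate 1 libraries, against 24.3, 22.9 and 26.1 CPM in the GABAergic nuclei outside this set in the same library. The log2 ratios were 2.32 (1.93 to 2.69), 2.00 (1.44 to 2.51) and 2.50 (2.05 to 2.93). By the marker limits, 74, 16 and 21 of the marker-rich nuclei were GABAergic themselves and 59, 15 and 7 were not, so the sets also differ in transmitter class. Within the GABAergic ones alone Per2 gave 2.06 (1.52 to 2.55), 2.06 (1.30 to 2.73) and 3.15 (2.69 to 3.59), while other members gave less uniform values, which follow.

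These nuclei also had more Arntl, at 134, 140 and 132 CPM against 59.1, 59.6 and 59.0 CPM, with log2 ratios of 1.18 (0.82 to 1.51), 1.24 (0.79 to 1.64) and 1.16 (0.69 to 1.60). Within the GABAergic ones alone Arntl gave 1.26 (0.82 to 1.67), 1.37 (0.79 to 1.90) and 1.15 (0.53 to 1.71). Cry1 gave 1.15 to 1.86. Clock gave 0.44, 0.30 and 0.69, with an interval that reached below 0 in the hM3 control library (-0.06). Counting intervals were clear of 0 on the higher side for 10, 8 and 9 of the 10 genes in the 3 libraries (background 13.4%, 11.2% and 11.4%) and on the lower side for 0 (background 10.9%, 9.17% and 11.6%). Nr1d1 and Dbp, and Per1 in the VPA library, passed the filter on the mean only through the marker-rich nuclei, so these counts support nothing by themselves. Nr1d1 (21.4 to 36.9 CPM against 3.74 to 4.50 CPM, on 10 to 12 UMIs) and Dbp (19.6 to 36.9 CPM against 4.65 to 6.94 CPM) are given as levels only. Among genes at 10 CPM or more in the GABAergic nuclei outside the set, a filter chosen after seeing the data, 7 of 7, 6 of 8 and 7 of 8 were higher (background 11.6%, 9.1% and 9.44%) and 0 lower (background 11.7%, 9.97% and 12.3%). With the marker-rich nuclei limited to GABAergic ones, also chosen after seeing the data, the counts were 7 of 7, 4 of 8 and 7 of 8 higher (background 9.46%, 7.69% and 9.12%) and 0 lower (background 9.23%, 6.47% and 11%). In the hM3 control library, with 16 such nuclei, Per1, Per2, Cry1 and Arntl were the 4. Cry2 changed sign there (-0.43, -1.87 to 0.70, on 6 UMIs), and Per3 (0.83, -0.18 to 1.68), Nr1d2 (0.46, -0.32 to 1.14) and Clock (0.32, -0.17 to 0.78) were not clear of 0. In CNO replicate 1 Cry2 was the 1 gene not clear of 0 (0.46, -0.50 to 1.27). These nuclei were shallower, with a median of 3737, 8702 and 8976 UMIs against 5932, 16142 and 16581, and the part of depth was not tested. The intervals cover counting error within a library, and the values come from 3 libraries.

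**Figure D5:**
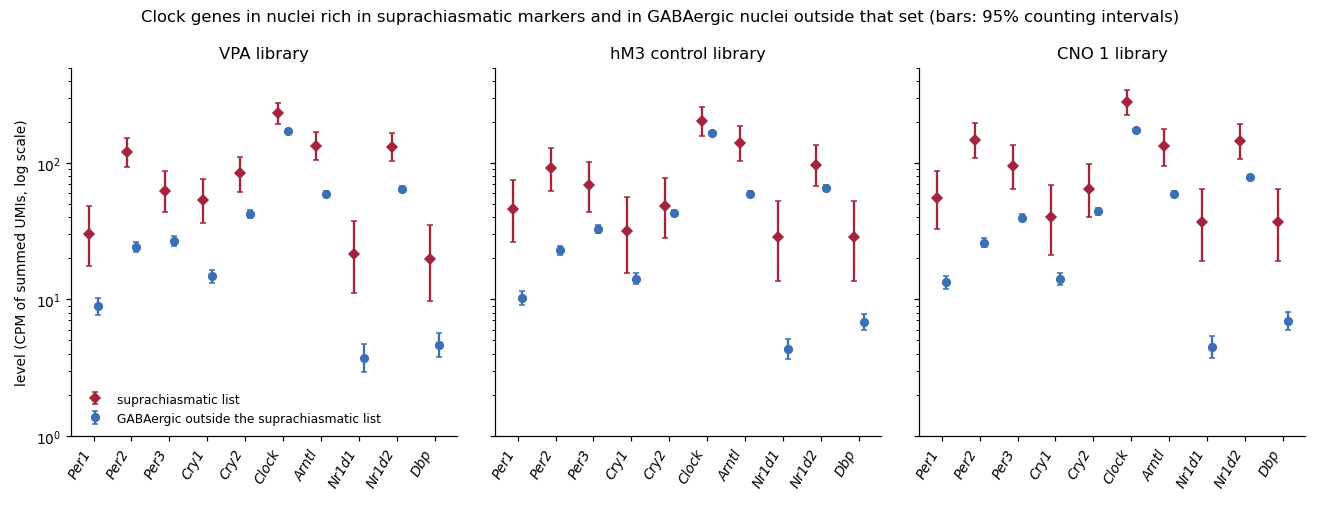
Level of each clock gene (CPM, log scale) in nuclei rich in suprachiasmatic markers (diamonds) and in GABAergic nuclei outside that set (circles) of 3 libraries, with 95% counting intervals; not all marker-rich nuclei are GABAergic. Per2 and Arntl lie above the circles in each library, and Clock and Cry2 lie nearest to them.

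Several members share bases with another gene in the GENCODE vM21 annotation, and the strand and intron settings of the counting are not given in the sources used here. Per3 (chr4:151003652-151044665) lies whole within Camta1 on the same strand, so reads from the longer transcript could enter or remove Per3 counts. Camta1 stood at 744, 713, 773, 772 and 614 CPM in neuron-like nuclei. Nr1d1 overlaps Thra by 1075 bases on the opposite strand, and Thra ranged from 75.1 to 82.9 CPM in neuron-like nuclei. In astrocyte-like nuclei Thra was at 98.1, 100.3, 117, 118 and 144 CPM, the same library order as Nr1d1. Dbp overlaps Sphk2 by 737 bases on the opposite strand, and Sphk2 in the VPA against the saline library was at 3.71 against 3.57 CPM in neuron-like, 1.82 against 8.31 CPM in astrocyte-like and 7.84 against 5.41 CPM in oligodendrocyte-like nuclei. The part of shared reads in the levels of these members was not tested.

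Of the 10 genes, 3 had at least 20 CPM in every library of the 3 classes and were matched with other genes by their pattern over the 15 values, each set to its class mean. The genes most like Nr1d2 among 3718 were Tpm3 (Pearson r = 0.96), Wdr43 (0.92) and Tnrc6a (0.92). Those most like Clock were Ern1 (0.89), Grk5 (0.87) and Wwox (0.87), and those most like Cry2 were Exd2 (0.91), Gigyf1 (0.91) and Cpsf7 (0.87). Over the 10 values of neuron-like and astrocyte-like nuclei, a choice made after seeing the data, the genes most like Nr1d2 among 4506 were Nsmaf (0.98), Prpf18 (0.97) and Tef (0.97). The first gene was Vipas39 (0.98) for Per3, Tmem164 (0.96) for Arntl, Disp1 (0.96) for Clock and Dcbld2 (0.90) for Cry2. The 15 values share libraries and depth, and the correlations are descriptions.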

How the data were processed

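The deposited matrices hold raw UMI counts per gene and nucleus, with no normalization, made by the authors with Cell Ranger 7.0.1 against mm10 per the submitters' processing notes. Whether intronic reads were counted is not given in the sources used here. A nucleus was kept if it had 1000 or more UMIs of which no more than 5% were mitochondrial, and the highest Scrublet scores (scanpy 1.11.5) were removed as doublets at 0.8% per 1000 nuclei. Classes were set from marker UMIs per 10000 UMIs, at 30 for neurons, astrocytes and oligodendrocytes, with nuclei that passed for another class left out (934 nuclei). Limits were set after the marker distributions had been seen. In the sets of neuron-like nuclei the limit was 4 for the suprachiasmatic list and 10 for Oxt. UMIs were summed per library and class. Levels are CPM with exact Poisson intervals, and ratios carry exact conditional binomial intervals, all at 95%. Counts past 1.5-fold used log2(CPM + 1) for genes at a mean of 10 CPM and 20 UMIs. Class comparisons used edgeR 4.0.16 (TMM, low counts filtered, threshold 0.05) in R 4.3.3, with DESeq2 1.42.0 as an alternative. In data simulated for astrocyte-like against neuron-like sums (13262 genes), the edgeR test recovered 67 of 100 genes changed 2-fold and 8 of 100 changed 1.5-fold, with 11 false calls. The simulation used a dispersion of 0.05 and few changed genes, whereas most genes tested differed between these classes. Its shares therefore do not give the power of the tests reported. Per gene, all members were named in every library, and the further genes come from fixed lists. The comparison of nuclei rich in suprachiasmatic markers with GABAergic nuclei outside that set was added after seeing the data. The members and lists were chosen with earlier results of these data known. Libraries are pools and their separate animals were not told apart, so p-values measure the spread between these libraries.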

Additional observations from a re-analysis of the deposited data

How the results depend on the processing

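Alternatives were a minimum of 2000 UMIs per nucleus or none, doublets kept, stricter marker limits, equal weight per nucleus, fixed weights over neuron sets, TMM-scaled CPM, a pseudocount of 10 CPM, no filter on low values, DESeq2, no library block, each library left out, and, chosen after seeing the data, a fold limit of 0.32 on the log2 scale (the lower limit). The counts of members higher and lower in astrocyte-like against neuron-like nuclei were 8 and 1 under every alternative run. In oligodendrocyte-like against astrocyte-like nuclei, 2 genes in place of 1 were higher with doublets kept and 1 to 2 with a library left out, where Per1 passed without the hM3 control library. Per3 in oligodendrocyte-like against neuron-like nuclei lost its call with no library block (-0.37), while Cry2 passed without CNO replicate 2 (0.26) and Nr1d2 without the VPA library (0.28). Differences that had not passed and changed sign were Arntl in astrocyte-like nuclei (-0.013 with no filter on low counts, and -0.050 to 0.21 with a library left out, lowest without saline) and, against neuron-like nuclei, oligodendrocyte-like Nr1d1 (-0.15 with stricter markers), Cry1 (-0.18 to 0.015 with a library left out, above 0 without either CNO library) and Dbp (-0.23 to 0.035, above 0 without the saline library). The cause was not tested.

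For VPA against saline, the 1 value past the limit became 0 with a minimum of 2000 UMIs or a pseudocount of 10 CPM, 2 with stricter markers or equal weight, 3 with no filter and 5 at the lower limit. Lower values became 1 with a minimum of 2000 UMIs and 3 at the lower limit. For CNO, 0 higher became 0 to 1 and 0 lower became 0 to 2 with a replicate left out, and 1 lower at the lower limit. The ratio of the 6 genes to Clock and Arntl ranged from -0.28 to 0.10 for VPA in oligodendrocyte-like nuclei and moved for VPA in neuron-like nuclei to 0.48 with equal weight. For CNO in oligodendrocyte-like nuclei it moved from 0.34 to 0.31 (2000 UMIs), 0.32 (no minimum), 0.36 (doublets kept), 0.35 (stricter) and 0.29 (equal weight). TMM scaling shifted all genes by -0.08 and -0.06 in neuron-like, -0.07 and -0.11 in astrocyte-like and -0.09 and -0.11 in oligodendrocyte-like nuclei for VPA and CNO. With the suprachiasmatic list limited to GABAergic nuclei and genes at 10 CPM outside it, the count higher in the hM3 control library moved from 8 to 4. No paired analysis was possible because the arms compared share fewer than 2 replicate numbers, 1 arm of each comparison being a single library, and the library block already ties the classes. Oligodendrocyte-like Dbp, Nr1d1 and Per2, at 1 to 33 UMIs per library, are limited by depth.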

Other observations

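In oligodendrocyte progenitor-like nuclei, which numbered 69 to 261 per library, Per2 stood at 48.4, 48.0, 43.6, 88.1 and 62.1 CPM (libraries in the order prenatal saline, prenatal VPA, hM3 control, then both CNO replicates). That lies above the 3.09 to 10.1 CPM of the oligodendrocyte-like nuclei in every library. Per3 was at 40.9 to 95.7 CPM there, against 11.8 to 29.5 CPM. Per1 went the other way in every library, at 10.4 to 15.5 CPM in 4 of them and 40.3 CPM in CNO replicate 1, against 24.7 to 51.2 CPM, on 2 to 16 UMIs. No test was made between these classes.

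Microglia-like nuclei, at 19 to 128 per library, had 0 UMIs of Cry2 in every library except for a lone UMI after prenatal VPA. In the hM3 control library, the deepest for that class with 302494 UMIs, a count of 0 allows up to 9.92 CPM taken as 3 counts, or 12.2 CPM by the exact Poisson interval, both below the neuronal 43.0 CPM and the astrocytic 121 CPM. Clock was counted there at 130 to 199 CPM and Nr1d2 at 82.5 to 135 CPM.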
